A study of Homo sapiens with 70 samples.

Results

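The genes described here are the replication-dependent histone genes, which supply the histone proteins that package newly copied DNA. They were chosen by name and type alone: protein-coding genes whose symbol is H1-1 to H1-5, or begins with H2AC, H2BC, H3C or H4C followed by a number. The rule found 68 of the 78932 genes in the table, of which 5 encode linker histone H1, 17 H2A, 18 H2B, 13 H3 and 15 H4. On the build GRCh38.p14, 54 of them lie on chromosome 6, 13 on chromosome 1 and 1, H4C16, on chromosome 12.

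The libraries come from MIA PaCa-2, an established line of pancreatic ductal adenocarcinoma, made resistant to the drug sotorasib. All cells carried doxycycline-inducible dCas9-KRAB, a DNA-binding protein without nuclease activity fused to a repressor domain, and 1 of 3 guide RNAs. The guides labelled sgZBTB11 #1 and sgZBTB11 #2 target the zinc finger gene ZBTB11, and sgNS is the control guide. Doxycycline (DOX) or the solvent DMSO was given, and RNA was taken at 4 times, 5 hr, day 1, day 3 and day 5, for 24 groups and 70 libraries in all. A group had 3 libraries, or 2 in the case of sgNS DMSO day 1 and sgZBTB11 #1 DMSO day 5. Whether the cells are 1 clone, or the replicates separate cultures, is not given in the sources used here. Each p-value is thus measured against a spread among libraries that may be technical only.

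Most replication-dependent histone mRNAs carry no poly(A) tail. Their 3′ end is cut just after a conserved stem-loop, which is bound by the stem-loop binding protein SLBP, and the mRNA is made and held mainly during S phase. Some of these genes can also end at a downstream poly(A) site, and this longer, polyadenylated form is known from cells that leave the cell cycle or differentiate. Library preparation here selected polyadenylated RNA, so the values describe what that selection retained and not the total histone mRNA of the cells.

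The stem-loop was read from the annotated transcripts of GENCODE version 29, in which 64 of the 68 genes were matched. It is printed because it marks where the usual transcript of these genes ends. Of the 64, 29 had it in an annotated transcript, against 0.254% of all 19684 coding genes. The lower-case letters are the loop of 4 bases and the capitals are the 6 bases of each arm of the stem. The first form below was carried by 15 genes, the second by 5 and the third by 4. The fourth was carried by 3 genes, the fifth by H3C6 alone and the sixth by H2AC11 alone.
Form 1: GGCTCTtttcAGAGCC
Form 2: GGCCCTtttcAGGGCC
Form 3: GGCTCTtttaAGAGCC
Form 4: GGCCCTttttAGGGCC
Form 5: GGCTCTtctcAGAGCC
Form 6: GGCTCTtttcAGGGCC

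The annotated transcripts differed in how far they went on past the stem-loop. The annotation continued for 1917 bases in H2BC26, 1862 in H3C6, 1761 in H2AC11, 1729 in H2BC21, 1510 in H4C16 and 1128 in H2AC6. It continued for 769 bases in H3C10 and 390 in H2AC25, but for 39 in H2BC5 and 6 in H4C11. In 23 genes it ran 100 bases or more past the stem-loop and in 6 it ended sooner. Only transcripts that hold the stem-loop were measured, which for H2BC5 is 1 of 2. The other 35 matched genes had no stem-loop in their annotated transcripts, which for many of them hold little beyond the coding sequence. H2BC12 is among them, with 1 transcript of 381 bases, while its gene spans chr6:27138293-27146858 in RefSeq.

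Promoters were taken from RefSeq (GRCh38.p14), in which 63 of the 68 genes were matched. Windows of 300 bases, from 250 before to 50 after the start site, were searched on both strands for 3 motifs. The octamer ATTTGCAT, a site of POU-domain factors known from H2B promoters, was in 26 of the 63 windows and in 1.80% of all 27305 promoters. It was in 14 of 18 H2B and 11 of 16 H2A windows, in 1 of 11 H3 windows, and in 0 of 5 H1 and 0 of 13 H4 windows. Windows of divergent H2A and H2B neighbours overlap, so 1 octamer can be counted for both genes and these counts are not independent. The shorter stretch printed below for H2BC21, for example, holds an octamer, while that for its neighbour H2AC20 does not. The TATA box TATAAA was in 42 of 63 windows against 12% of all promoters. CCAAT was in 53 of 63 windows against 35.7% of all promoters, and in 3 of 13 H4 windows. A match is a run of letters in the window and is not evidence of binding.

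The 150 bases before the start site are printed for 2 genes with the highest polyadenylated levels and for 2 neighbouring pairs whose changes are described further on. Capitals mark TATAAA, ATTTGCAT and CCAAT, or their reverse complements. The windows are chr6:26157971-26158120 (plus strand) for H2BC5 and chr6:27146859-27147008 (minus strand) for H2BC12.
H2BC5: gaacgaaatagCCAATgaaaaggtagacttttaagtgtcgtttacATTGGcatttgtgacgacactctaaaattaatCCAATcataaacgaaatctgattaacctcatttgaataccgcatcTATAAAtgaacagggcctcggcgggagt
H2BC12: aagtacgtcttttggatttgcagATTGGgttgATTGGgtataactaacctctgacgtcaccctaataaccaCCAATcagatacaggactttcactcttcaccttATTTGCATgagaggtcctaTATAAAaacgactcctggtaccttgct
H2AC20 (chr1:149886768-149886917, plus strand) and H2BC21 (chr1:149886683-149886832, minus strand) start 236 bases apart and are read away from each other, so these windows overlap.
H2AC20: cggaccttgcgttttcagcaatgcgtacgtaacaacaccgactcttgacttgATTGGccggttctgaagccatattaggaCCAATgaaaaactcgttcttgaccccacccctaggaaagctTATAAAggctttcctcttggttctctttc
H2BC21: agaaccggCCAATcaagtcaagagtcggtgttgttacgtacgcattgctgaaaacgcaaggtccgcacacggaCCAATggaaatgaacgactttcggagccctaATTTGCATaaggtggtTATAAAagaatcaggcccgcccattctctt
H2AC25 (chr1:228457874-228458023, minus strand) and H2BC26 (chr1:228457953-228458102, plus strand) are likewise divergent, with 230 bases between their starts.
H2AC25: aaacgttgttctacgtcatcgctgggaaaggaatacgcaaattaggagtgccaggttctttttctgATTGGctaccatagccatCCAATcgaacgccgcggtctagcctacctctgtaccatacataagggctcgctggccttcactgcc
H2BC26: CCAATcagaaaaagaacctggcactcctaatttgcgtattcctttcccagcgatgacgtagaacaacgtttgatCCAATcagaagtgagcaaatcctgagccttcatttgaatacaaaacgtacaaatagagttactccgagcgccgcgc

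Polyadenylated RNA from these genes was a small part of each library. Total counts per library were 12068877 to 20627688, and 1752 to 4932 of those counts fell on the 68 genes. That was 0.0118% to 0.0249% of the library, with a median of 0.0186%. In TPM (transcripts-per-million), a level per transcript length, the 68 genes summed to 207 to 343, with a median of 271. Single replacement variants, which are not limited to S phase and come from ordinary polyadenylated mRNA, had medians above the median of that sum. The median TPM was 620 for H3-3A, 497 for H2AZ1, 409 for H3-3B and 287 for H2AJ, whose range of 118 to 396 overlaps that of the sum.

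A few members carried most of the reads. H2BC12 had a median TPM of 54.8 (33.3 to 80.0 over the 70 libraries). It was followed by H2BC5 at 30.4 (10.7 to 65.4), H2AC18 at 27.9 (0 to 44.9) and H1-2, a linker histone, at 23.9 (16 to 31.2). H4C11 stood at 23.8 (0 to 44.4), H2AC25 at 23.2 (11.2 to 30.7) and H2AC20 at 14 (5.41 to 20.2). The ranges of these 7 genes overlap their neighbours in this order. The order in TPM is per length, while in counts the first 3 members took 46.7% of the reads of all 68 and the first 12 took 82.2%.

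Below these 7, H2AC6 had a median TPM of 6.64, H2BC21 of 5.18, H1-4 of 4.82 and H3C10, the highest H3 gene, of 3.32. In all, 18 members had a median TPM of at least 1 and under 10, and 43 were below 1. No count was found in any library for 5 members (H2BC1, H2AC1, H4C6, H4C7 and H3C7), and 4 more (H1-1, H3C8, H2BC10 and H2BC9) had 1 or 2 counts over all 70 libraries. A count of 0 allows up to 3 counts per library, and this limit covers counting error only. Of the 68, 40 passed the filter on low counts for the comparison of times, and every test on times below refers to those 40. The other 28 had median counts of at most 4.

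**Figure D1:**
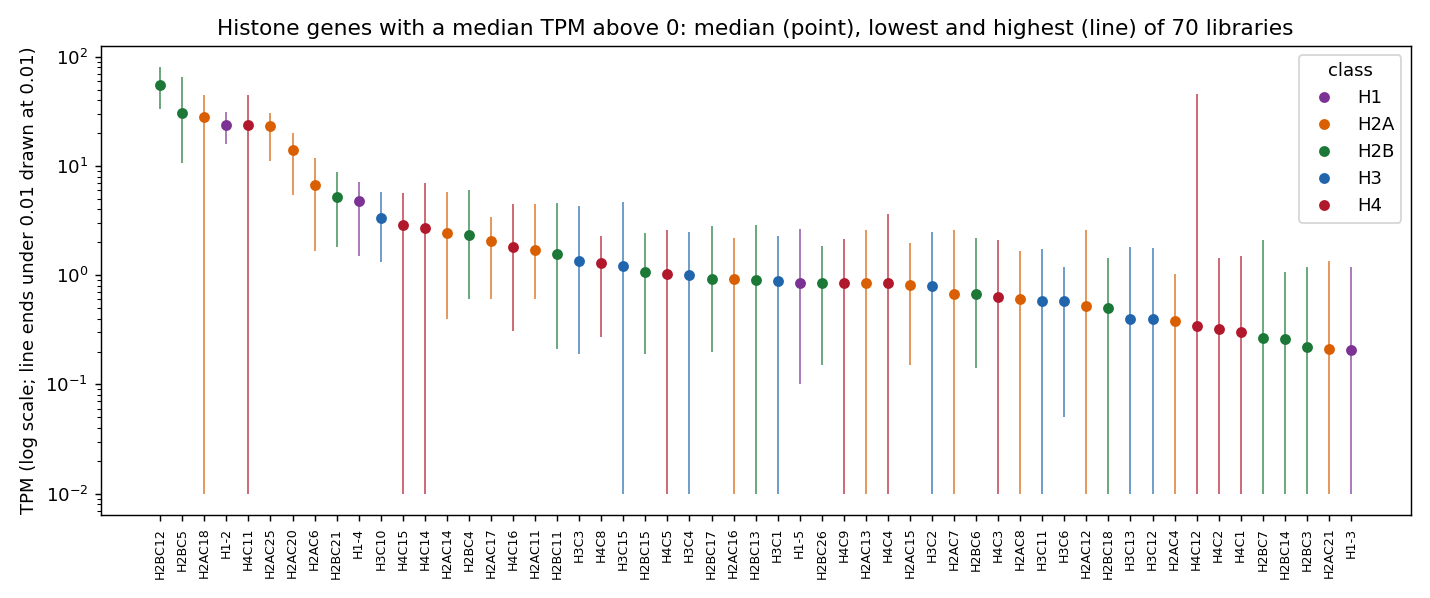
Level of each histone gene with a median TPM above 0 on a log axis, ordered by median and coloured by class, with a point for the median and a line from the lowest to the highest of the 70 libraries (line ends under 0.01 drawn at 0.01). H2BC12 is highest with a median of 54.8, and H2AC18 and H4C11 are the members of the leading 7 whose lines reach 0.

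Several of these genes are near-identical copies, and the deposited counts split their reads by estimation. All stretches of 75 bases (the read length) of H4C12 are also in H4C11, and 79.6% of those of H4C11 are in H4C12. H4C11 ranged from 0 to 160 counts and was at 0 in 13 libraries, while H4C12 ranged from 0 to 124 and was at 0 in 32. In 45 libraries exactly 1 of the pair was at 0. Their sum stayed between 48 and 160 counts, with a median of 91.5. The coefficient of variation over the 70 libraries was 59.3% for H4C11, 139% for H4C12 and 24.5% for the sum.

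H4C14 and H4C15 share 96.2% and 97.1% of their stretches with each other. H4C14 ranged from 0 to 94 and H4C15 from 0 to 130 counts, while their sum was 42 to 160. The coefficients of variation were 54% and 75.5% for the single genes and 27% for the sum. H2AC19 was at 0 in 67 libraries and reached 189 counts in the rest, which were low for H2AC18. These 2 genes were not matched in GENCODE version 29 and were paired because their counts changed places. H3C14 and H3C15 share all their stretches and summed to 1 to 23 counts, and H2AC13 with H2AC14 summed to 4 to 31. The sums of these 10 genes were also tested, and the summing was chosen after the data were seen. Genes outside the rule share sequence with members too. Of the stretches of H2BC12, 50.5% occur elsewhere in the annotated transcripts, 42.3% in H2BC12L, which was given 0 or 1 count in every library, and 5.21% in its closest member H2BC17. Of those of H2AC20, 23.7% occur in each of the annotated genes HIST2H2AA3 and HIST2H2AA4, which were not matched in the count table. The counts of H2AC20, like those of H2AC18, were not whole in 65 of the 70 libraries, so its reads were in part split by estimation too.

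**Figure D2:**
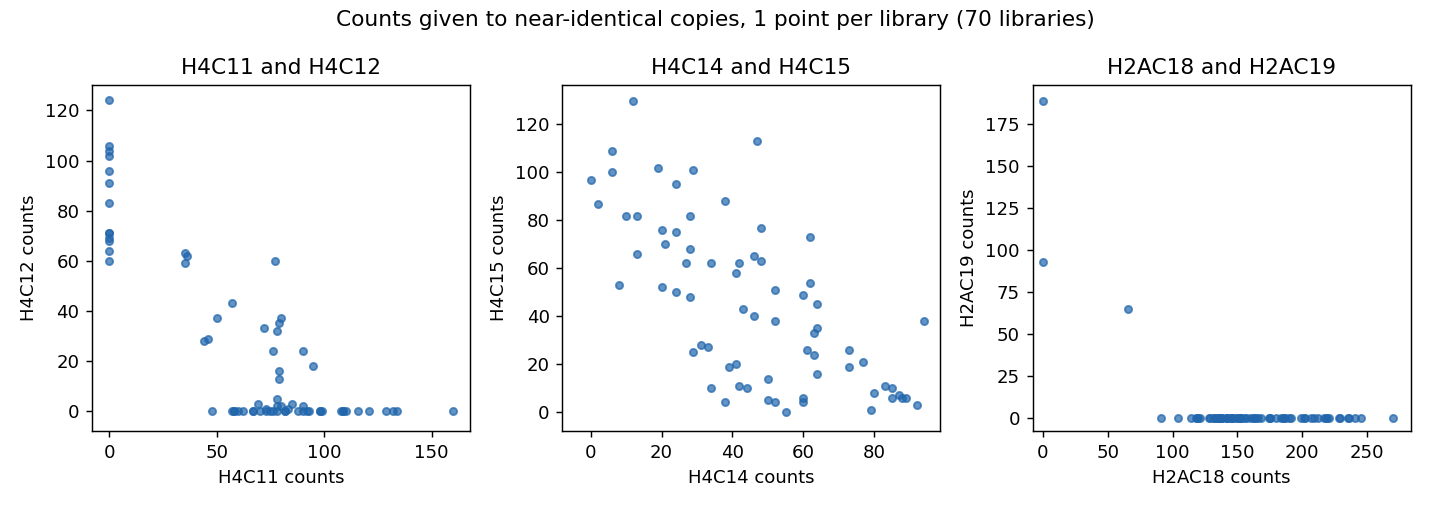
Counts given to 3 pairs of near-identical copies, H4C11 with H4C12, H4C14 with H4C15 and H2AC18 with H2AC19, with 1 point per library and 1 copy on each axis. Libraries with many counts for one copy tend to have few for the other, and exactly 1 of H4C11 and H4C12 is at 0 in 45 libraries.

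Polyadenylated histone reads were higher at the later culture times. In the DMSO libraries the 68 genes together had a median of 137 CPM (counts-per-million, scaled by the TMM method; 132 to 158, n = 9) at 5 hr and 147 (136 to 170, n = 8) at day 1. The median was 204 (198 to 207, n = 9) at day 3 and 235 (223 to 252, n = 8) at day 5. The ranges at day 3 and day 5 overlap with neither each other nor the earlier times. The mean at day 5 was 1.65 times that at 5 hr. Over all 70 libraries the share of counts on mitochondrial DNA genes moved with time too, from a median of 12.9% at 5 hr to 10.5%, 19.6% and 31.4%. Its part in the result was not tested, but with CPM taken over the counts outside mitochondrial genes the ratio was 2.07. Collection time and any preparation batch cannot be told apart, and in bulk RNA fewer cells with a transcript and less of it per cell cannot be told apart either.

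The sums of the histone classes did not rise alike, and a few genes with many reads weigh most in them. H2B genes together had medians of 67.7, 63.9, 97.7 and 132 CPM at 5 hr and days 1, 3 and 5, a ratio of means of 1.92 over the whole course. Within this sum the means at 5 hr and day 5 were 7.49 and 35.5 CPM for H2BC5 and 47.4 and 63.8 for H2BC12. H2A genes had 35.8, 44, 58.1 and 59.6 CPM at the same times, a ratio of 1.60, with means from 3.92 to 14.8 CPM for H2AC6 and 11.5 to 21.5 for H2AC25. H3 genes went from 5.69 to 8.64 CPM (ratio 1.62) and H4 genes from 13.6 to 18.7 (ratio 1.32). The H1 genes had 17.5, 18.4, 18.7 and 18.1 CPM, a ratio of 1.00 that became 1.26 with CPM over counts outside mitochondrial genes. For H2B the first step, from 5 hr to day 1, was a ratio of 0.986 under TMM and 0.982 under DESeq2's scaling but 1.07 outside mitochondrial genes, so its direction rests on the scaling. Taken gene by gene with DMSO, the classes ranked otherwise. The median log2 changes of tested genes in the 3 steps were 0.40, 0.28 and 0.004 for H2B and 0.59, 0.14 and 0.01 for H2A. They were 0.38, 0.04 and -0.41 for H3 and 0.50, -0.06 and -0.13 for H1. For H4 they were 1.27, 0.64 and -0.01, with copies tested singly. The 7 tested H4 genes include H4C11 with H4C12 and H4C14 with H4C15. As sums these pairs changed by -0.56, 0.39 and -0.39 and by 0.54, 0.08 and 0.24 in the 3 steps. The rank of H4 is thus uncertain.

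**Figure D3:**
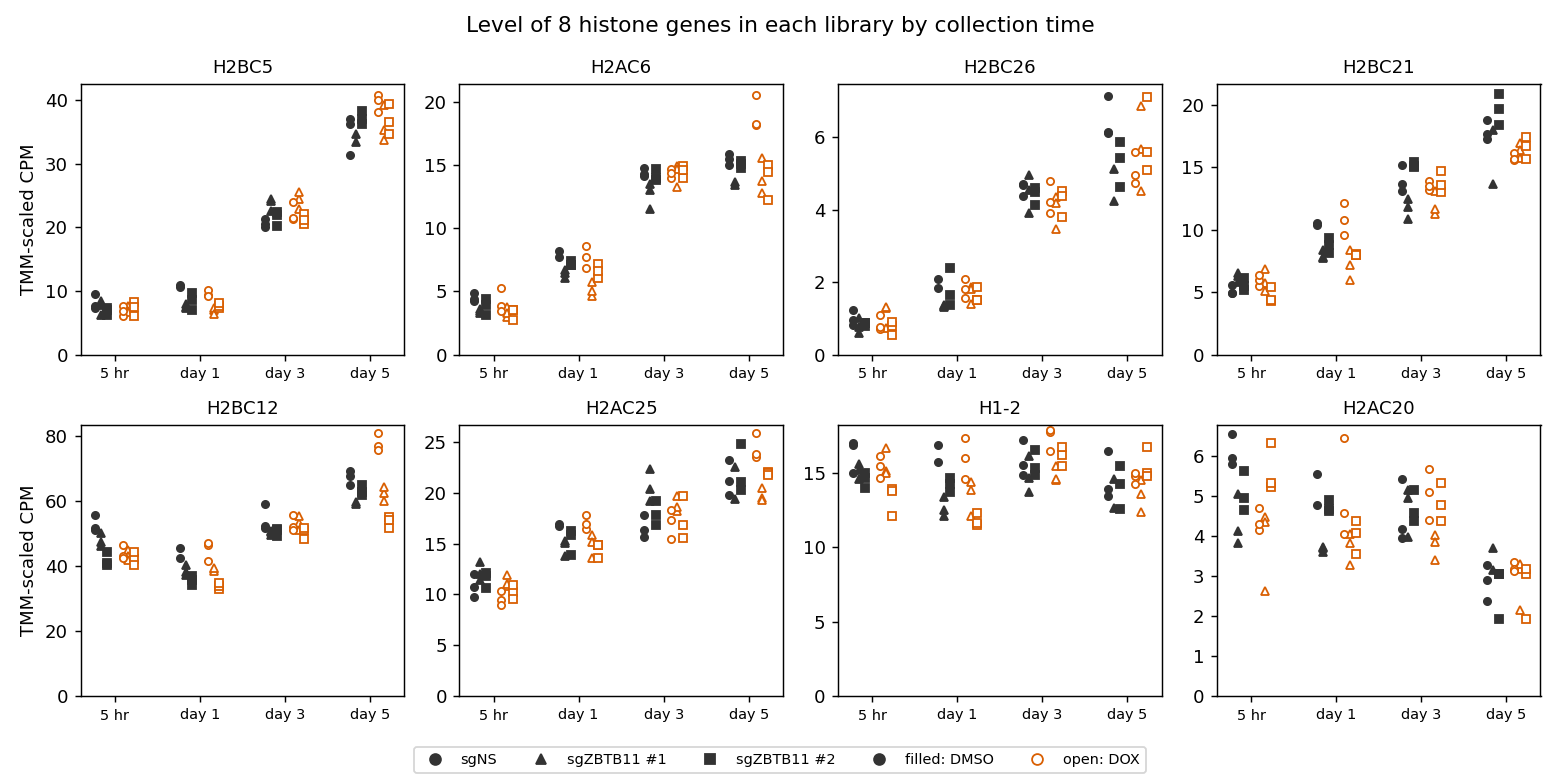
TMM-scaled CPM of 8 histone genes in each library at 5 hr, day 1, day 3 and day 5, with filled points for DMSO, open points for DOX and a shape for each guide. H2BC5 climbs from a DMSO median of 7.34 to 36.2 CPM, H1-2 has DMSO medians between 14 and 15.3, and H2AC20 is lowest at day 5.

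Each step was tested gene by gene with edgeR's quasi-likelihood test, adjusted by the Benjamini-Hochberg method over all genes tested, with the mean over the 3 guides as the value of a time. From 5 hr to day 1 with DMSO, 16 of the 40 members rose, against 33% of all genes, and 3 fell, against 33.3%. The median log2 change was 0.44 in members and 0.01 in all genes. From day 1 to day 3, 17 rose and 5 fell, with 40.2% and 38.8% of all genes, and medians of 0.16 and 0.04. From day 3 to day 5, 8 rose and 7 fell, with 31.8% and 32.9% of all genes, and medians of -0.06 and -0.01. The share of members that rose was thus near the background in the first 2 steps and below it in the last, and the share that fell was below the background in all 3. Of the 40, only 26 had a median count of at least 10, and few reads make a change harder to call. The part of low counts in these shares was not tested.

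The ranges of neighbouring times did not overlap for 7, 8 and 2 of the 40 members in the 3 steps, against 24.7%, 45.4% and 24.6% of the 18062 genes tested. Fewer members than genes at large thus separated, and the part of low counts in this was not tested either. Over the course, 17 members rose in 1 step or more and fell in none (28.4% of all genes), 7 fell and never rose (24.1%), 6 did both (40.3%) and 10 changed in no step (7.2%). With copies summed the 35 units divided into 17, 7, 7 and 4.

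Of the 7 members with the most reads, the H2B gene H2BC5 had the largest ratio of day 5 to 5 hr. Its CPM with DMSO was 6.21 to 9.47 at 5 hr (median 7.34), 7.01 to 10.9 at day 1 (8.24), 19.98 to 24.4 at day 3 (21.9) and 31.4 to 38.3 at day 5 (36.2). The values of day 3 lay above all earlier ones and those of day 5 above day 3. The log2 change was 0.24 (SE 0.07) in the first step, 1.31 (SE 0.05) in the second and 0.69 (SE 0.04) in the last, with edgeR adjusted p of 9.0e-04, 3.5e-39 and 8.1e-27. The mean at day 5 was 4.74 times that at 5 hr.

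H2BC12, the member with most reads, took another course. Its CPM was 40.1 to 55.5 at 5 hr (median 47.2), 34.1 to 45.5 at day 1 (37.5), 49.2 to 59.1 at day 3 (51.1) and 59 to 69.2 at day 5 (63.8). It fell by 0.27 (SE 0.03) on the log2 scale in the first step, then rose by 0.40 (SE 0.03) and by 0.29 (SE 0.03), with edgeR adjusted p of 4.4e-13, 7.2e-22 and 1.0e-15. Day 1 was the low point, and its range overlapped that of 5 hr but not that of day 3.

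H2BC21, on chromosome 1, rose in every step, from 4.93 to 6.52 CPM at 5 hr (median 5.53) to 7.75 to 10.6 at day 1 (8.55), 10.8 to 15.4 at day 3 (13.6) and 13.6 to 20.9 at day 5 (18.2). Its log2 changes were 0.68 (SE 0.07), 0.59 (SE 0.06) and 0.39 (SE 0.05), with edgeR adjusted p of 1.3e-15, 2.0e-16 and 9.9e-11. H2BC26 had fewer reads and a larger ratio, with medians of 0.876, 1.52, 4.56 and 5.66 CPM. Its changes were 0.92 (SE 0.15), 1.42 (SE 0.11) and 0.27 (SE 0.09). The last of these was not called without replicate 2 of sgZBTB11 #1 with DMSO at day 5 (edgeR adjusted p = 0.052). Besides these 2 genes, H2BC5 and H2AC25 also rose in all 3 steps, which makes 4 of the 40 members, against 5.63% of all genes.

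Among H2A genes, H2AC6 rose early and then levelled. Its CPM was 3.13 to 4.87 at 5 hr (median 3.97), 6.08 to 8.18 at day 1 (7.09), 11.5 to 14.8 at day 3 (14) and 13.5 to 15.9 at day 5 (15.1). The first 3 ranges do not overlap, whereas those of day 3 and day 5 do. The log2 changes were 0.88 (SE 0.07), 0.94 (SE 0.06) and 0.10 (SE 0.05), and the last did not pass the test (edgeR adjusted p = 0.097). H2AC25 rose by smaller amounts, from a median of 11.8 CPM to 15.6, 17.8 and 21.1, with log2 changes of 0.44, 0.23 and 0.23 (SE 0.05 for each).

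Other H2A genes rose and then fell, only fell, or fell and then rose. H2AC11 went from 1.85 CPM at 5 hr to 4.05 at day 1, a log2 change of 1.10 (SE 0.13), and stood at 3.82 at day 3 and 2.58 at day 5. The decrease of 0.60 (SE 0.12) from day 3 to day 5 passed the test (edgeR adjusted p = 1.1e-05). H2AC20 had 5.05, 4.65 and 4.59 CPM at the first 3 times and 3.05 at day 5. It fell by 0.65 (SE 0.10) in the last step (edgeR adjusted p = 4.4e-08), and the ranges of day 3 (3.94 to 5.43) and day 5 (1.93 to 3.70) do not overlap. The sum of H2AC18 and H2AC19 fell by 0.49 (SE 0.06) from 5 hr to day 1 and rose by 0.61 (SE 0.06) by day 3.

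The H3 genes, which encode the canonical H3 proteins, divided by gene. H3C10 had medians of 2.04, 2.28, 4.04 and 4.32 CPM, and the second step was a rise of 0.85 (SE 0.11; edgeR adjusted p = 2.4e-11). H3C6 had 0.397, 0.476, 1.49 and 2.49 CPM, with rises of 1.75 (SE 0.21) by day 3 and 0.63 (SE 0.15) by day 5. The H3 genes that fell had few reads. H3C3 had 0.661, 0.752, 0.330 and 0.139 CPM and fell by 1.23 (SE 0.26) from day 1 to day 3 (edgeR adjusted p = 1.9e-05). The summed copies H3C14 and H3C15 rose by 0.49 (SE 0.21) to day 1 and then fell by 0.73 (SE 0.21) and 1.09 (SE 0.28).

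H4 genes could be read largely as sums. H4C11 and H4C12 together had medians of 6.76, 5.00, 6.27 and 4.86 CPM at the 4 times. The sum fell by 0.56 (SE 0.08), rose by 0.39 (SE 0.08) and fell by 0.39 (SE 0.09) in the 3 steps. For H4C11 alone the first change was -3.48 (SE 1.06), many times that of the sum. H4C14 and H4C15 together rose by 0.54 (SE 0.08) and, in the last step, by 0.24 (SE 0.07), with medians from 3.71 to 7.00 CPM. H4C16, which lies apart on chromosome 12, rose by 1.27 (SE 0.17) and 0.36 (SE 0.14) in the first steps.

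Of the H1 genes, H1-2 held nearly still under TMM scaling and its neighbours in name did not. The H1 sum, of which H1-2 has most reads, rose 1.26 times from 5 hr to day 5 over counts outside mitochondrial genes. H1-2 had medians of 15.0, 14, 15.3 and 14.1 CPM, and its ranges overlapped at all times. Its 2 called changes, a rise of 0.10 (SE 0.05) by day 3 and a decrease of 0.13 (SE 0.05) by day 5, were lost in 7 and 5 of 22 alternative fits (adjusted p up to 0.12 in both). H1-4 had 1.95, 3.01, 2.91 and 3.82 CPM and rose by 0.68 (SE 0.11) in the first step and 0.37 (SE 0.10) in the last. H1-5 had 0.820, 1.10, 0.449 and 0.234 CPM and fell by 1.34 (SE 0.24) from day 1 to day 3 (edgeR adjusted p = 6.8e-07).

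Some large called log2 changes came from members with few reads. From 5 hr to day 1 with DMSO, H2AC7 rose by 2.20 (SE 0.61), from a median of 0.0661 to 0.384 CPM. With DOX its medians were 0.207 and 0.237 CPM and its change of 0.24 (SE 0.60) did not pass. H2AC7 shares 97.8% of its stretches of 75 bases with another coding gene of the annotation, which had 0 to 18 counts per library, so its values are uncertain. H4C9 rose by 1.71 (SE 0.30) with DMSO, from 0.188 to 0.635 CPM, with overlapping ranges. H2AC15 rose by 1.09 (SE 0.17) and, by day 3, by 1.03 (SE 0.13), with medians of 0.575, 1.39 and 2.64 CPM, and its values at day 3 lay above all at day 1.

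The largest called decreases from day 3 to day 5 were 1.16 in H3C2, 0.97 in H3C3, 0.90 in H2BC17 and 0.86 in H1-5 on the log2 scale (SE 0.39, 0.36, 0.32 and 0.33). All 4 were below 0.5 CPM in median at both times, and each was lost in 1 to 4 alternative fits, mostly on leaving out a library (adjusted p up to 0.078). For H3C2, H2BC17 and H1-5 replicate 2 of sgZBTB11 #1 with DMSO at day 5 was among these libraries. From day 1 to day 3, H2BC13 changed by -0.92 (SE 0.36), which was not called without replicate 2 of sgNS with DMSO at day 1 or by DESeq2 (adjusted p up to 0.24). H2AC13 changed by -0.87 (SE 0.37), but its sum with H2AC14 changed by -0.37 (SE 0.20) and did not pass (edgeR adjusted p = 0.089).

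The same steps in the DOX libraries come from other libraries. From 5 hr to day 1, 20 members rose (32.5% of all genes) and 4 fell (33.7%). From day 1 to day 3, 18 rose (41.4%) and 9 fell (39.2%), and from day 3 to day 5, 8 rose (31.1%) and 9 fell (34.2%). In the 3 steps 17, 21 and 12 members were called in both DMSO and DOX, and all of them changed in the same direction in both. Of all genes, 55.9%, 73.6% and 57.1% were called in both, nearly all in the same direction too (55.3%, 73.5% and 57.1%), so this agreement is no more than the background. H2BC5 rose by 0.17, 1.49 and 0.74 with DOX, and H2AC6 by 0.83 and 1.16 in the first 2 steps. The first rise of H2BC5 with DOX was not called without replicate 1 of sgZBTB11 #2 with DOX at 5 hr (edgeR adjusted p = 0.065). From day 1 to day 3 with DOX, 2 H4 genes were called lower. H4C14 fell by 1.25 in this step, but its sum with H4C15 rose by 0.22 (edgeR adjusted p = 0.0027). H4C12 went from a mean of 3.27 to 1.04 CPM, but its sum with H4C11 rose by 0.49 (edgeR adjusted p = 1.8e-08).

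**Figure D4:**
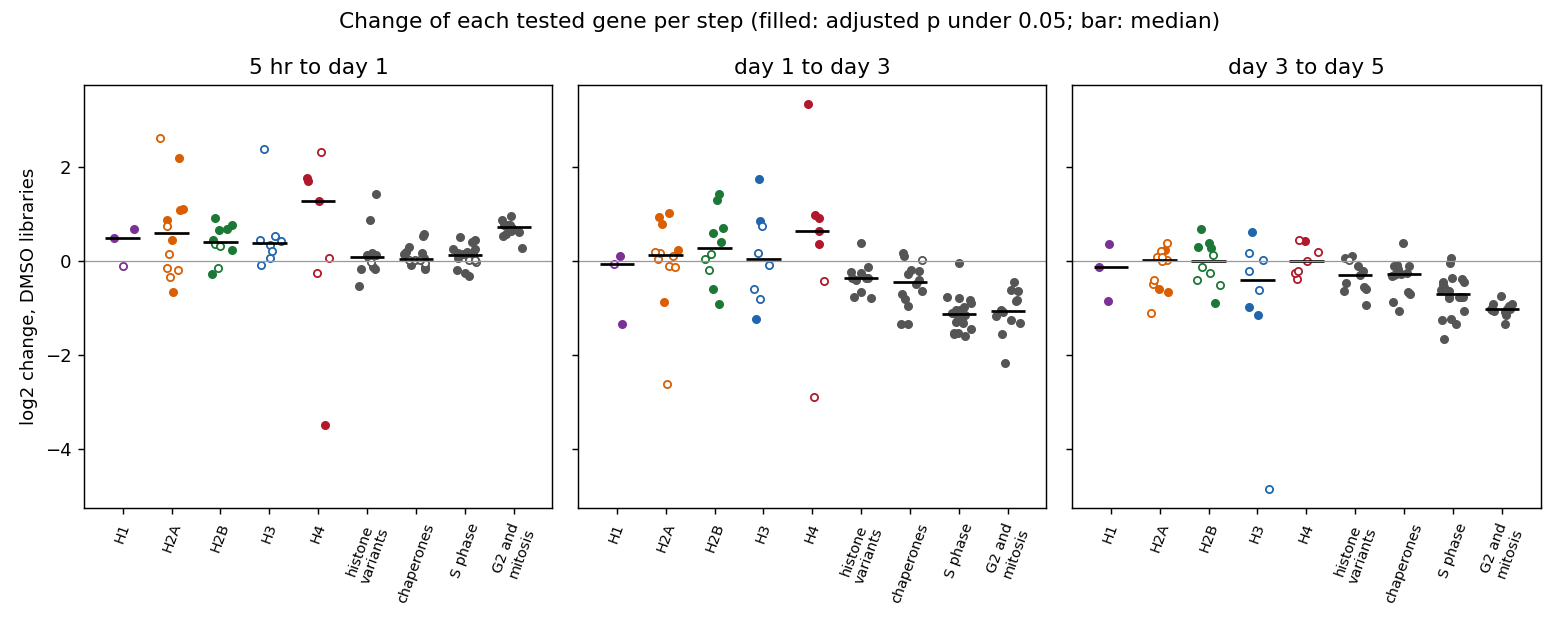
Log2 change of each tested gene over the 3 steps of culture time in the DMSO libraries, for the 5 histone classes and 4 lists of related genes, filled where the adjusted p was under 0.05, with a bar for the median. The histone classes hold points on both sides of 0 in the step from day 1 to day 3, in which all 20 S phase genes and all 12 genes of G2 and mitosis fell.

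Members were set side by side by where their annotated transcript ends. Of the 23 genes whose annotation runs 100 bases or more past the stem-loop, 17 were tested. Of those 17, 10 rose and 0 fell from 5 hr to day 1, 11 rose and 1 fell by day 3, and 5 rose and 1 fell by day 5, with median log2 changes of 0.68, 0.64 and 0.13. Of all genes tested, 33%, 40.2% and 31.8% rose and 33.3%, 38.8% and 32.9% fell in these steps. Of the 6 whose annotation ends sooner, 5 were tested, with 1 higher and 1 lower, 2 and 2, and 1 and 0 in the steps. Their medians were -0.14, 0.20 and -0.38. Of the 35 with no annotated stem-loop, 14 were tested, with 5 higher and 1 lower, 3 and 1, and 2 and 4, and medians of 0.47, 0.08 and -0.19. H2BC5, with 39 annotated bases after its stem-loop, is in the group of 6 and rose in every step. The stem-loop is in 1 of its 2 annotated transcripts, so this place rests on that transcript alone. Its gene spans chr6:26158121-26171349 in RefSeq. With copies summed, the group of longer annotation had 15 units, with 11 higher and 0 lower, 10 and 2, and 6 and 2. The group that ends sooner had 5, with 1 higher and 1 lower, 2 and 1, and 1 and 2, of which H4C11 with H4C12 was lower in the first step and the last. The group with no annotated stem-loop had 12, with 5 higher and 1 lower, 3 and 1, and 2 and 4. H2AC18, H2AC19, H3C2 and H3C3 were tested but not matched in the annotation, so they are in no group. A tested gene is one with more reads, and the groups were not tested against each other.

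Neighbouring histone genes often share a promoter region, and 13 pairs here are divergent. In 7 pairs both genes were tested, which over the 3 DMSO steps makes 21 comparisons of a pair. Both genes were called in 8 of these, in the same direction in 6 and in opposite directions in 2. Values are given here for 3 pairs, chosen after they were seen, and they include both opposite cases. H2AC25 and H2BC26 rose together in all 3 steps. H2AC20 and H2BC21 parted from day 3 to day 5, with -0.65 and 0.39. H2AC6 and H2BC4, whose starts are 246 bases apart, parted from day 1 to day 3, with 0.94 (SE 0.06) and -0.60 (SE 0.18).

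Lists of genes of related biology are given over the same DMSO steps. The background for every list, here and below, is 33%, 40.2% and 31.8% of all genes higher and 33.3%, 38.8% and 32.9% lower. Of the 11 replacement variants, 6 rose and 4 fell by day 1, 1 rose and 10 fell by day 3, and 2 rose and 8 fell by day 5. H1-10, a linker histone variant, rose by 0.87 (SE 0.02) in the first step, and H2AZ1 fell by 0.76 (SE 0.02) in the second. Of 15 genes of histone mRNA transcription and 3′ processing, 5 rose and 8 fell, 2 rose and 13 fell, and 2 rose and 10 fell. Among these, SLBP fell by 0.21, 0.51 and 0.27 on the log2 scale in the 3 steps (SE 0.02, 0.03 and 0.03). NPAT, the coactivator of histone gene transcription, rose by 0.22 (SE 0.06) and then fell by 0.41 (SE 0.06) and 0.20 (SE 0.06).

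Of 17 genes of poly(A) addition and nuclear RNA decay, 7 rose and 9 fell, 5 rose and 11 fell, and 7 rose and 9 fell. Of 14 histone chaperones, 7 rose and 3 fell, 2 rose and 11 fell, and 1 rose and 13 fell. HAT1, which acetylates new H4, fell by 1.34 (SE 0.03) from day 1 to day 3.

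Cell cycle genes are given beside them. Of 20 S phase genes, 13 rose and 3 fell by day 1, all 20 fell by day 3, and 19 fell and 1 rose by day 5. The medians were 0.12, -1.12 and -0.70, and RRM2, a subunit of ribonucleotide reductase, fell by 1.60 (SE 0.02) in the second step. All 12 genes of G2 and mitosis rose by day 1 and fell in both later steps, with medians of 0.72, -1.06 and -1.03. Of 11 tested genes of arrest and differentiation, 8 rose and 2 fell, 7 rose and 4 fell, and 3 rose and 4 fell. BTG2, an antiproliferative gene, rose by 2.16 (SE 0.03) from day 1 to day 3. The summed polyadenylated reads of the 68 histone genes were highest at day 5, after the S phase genes had fallen in both later steps. Whether the one depends on the other was not tested.

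DOX against DMSO changed few of these genes. ZBTB11 itself fell with DOX by 0.17, 0.59, 0.79 and 0.90 on the log2 scale at the 4 times with sgZBTB11 #2. With sgZBTB11 #1 it changed by -0.00, -0.28, -0.45 and -0.42, and with sgNS by 0.17, -0.11, -0.06 and -0.15. At 5 hr, 28 members were tested. With sgNS, 3 were lower with DOX and 0 higher, where 40.9% of all genes were called. With sgZBTB11 #1, 1 was lower (32.8% of all genes), and with sgZBTB11 #2 none passed (17% of all genes, smallest edgeR adjusted p among members 0.051).

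The 3 genes lower with sgNS at 5 hr were H2BC12, H2AC18 and H2AC20. Reads of H2AC18 and H2AC20 were in part split by estimation, so these need not be separate results. H2BC12 had 55.5, 51 and 51.5 CPM with DMSO and 43.1, 46.3 and 42.5 with DOX, a change of -0.24 (SE 0.05, edgeR adjusted p = 2.0e-04). H2AC18 had 14.9, 13.7 and 14.4 against 9.67, 11.6 and 11.4 CPM, a change of -0.37 (SE 0.09), and the sum with H2AC19 gave the same. H2AC20 had 5.80, 6.55 and 5.94 against 4.16, 4.71 and 4.31 CPM, a change of -0.45 (SE 0.15, edgeR adjusted p = 0.014), which was not called without replicate 2 of sgNS with DMSO (0.075). The DMSO and DOX values did not overlap for any of the 3. The same held for 10 of the 28 members tested in this comparison, called or not, and the share over all genes was not counted. With copies summed, 5 members were called in this comparison. H2BC12 was also the gene called with sgZBTB11 #1, with 50.05, 46.1 and 47.2 CPM against 44.8, 42.9 and 41.7 (-0.14, SE 0.05, edgeR adjusted p = 0.027). That call was lost in 5 of 11 alternative fits, among them DESeq2. With sgZBTB11 #2, H2BC12 had 40.9, 44.3 and 40.1 CPM with DMSO and 42.1, 44.3 and 40.3 with DOX.

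At day 1 and day 3 no member passed edgeR's test with any guide. At day 1, 36 were tested, where 2.19%, 4.83% and 7.88% of all genes were called with sgNS, sgZBTB11 #1 and sgZBTB11 #2. Members with an unadjusted p under 0.05 numbered 1, 4 and 3. DESeq2 called 0, but gave an adjusted p for 2, 3 and 3 members. At day 3, 32 were tested, where 0.877%, 0.733% and 1.17% of all genes were called. Unadjusted, 1, 4 and 1 members were under 0.05. DESeq2 called 0 of the 1, 3 and 7 members to which it gave an adjusted p.

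At day 5, 28 members were tested. With sgNS 3 rose with DOX (17.4% of all genes called in either direction), with sgZBTB11 #1 none passed (1.14%; 3 unadjusted, 0 by DESeq2 of the 1 it tested), and with sgZBTB11 #2 3 fell (8.98%). With sgNS, H2BC12 went from 64.9, 69.2 and 67.7 CPM to 76.9, 75.7 and 80.9, a change of 0.21 (SE 0.04, edgeR adjusted p = 1.1e-04). H2AC6 went from 15.0, 15.5 and 15.9 to 18.2, 18.2 and 20.6 CPM (0.29, SE 0.08), which was not called without replicate 3 with DOX (edgeR adjusted p = 0.091). H2BC5 went from 36.2, 37 and 31.4 to 40.8, 38.1 and 39.99 CPM (0.20, SE 0.06), and its call was lost when any of 3 libraries was left out (largest edgeR adjusted p = 0.29). These were replicate 3 with DMSO and replicates 1 and 3 with DOX.

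With sgZBTB11 #2, the same H2BC12 was lower with DOX at day 5. It had 61.9, 62.8 and 64.9 CPM with DMSO and 51.7, 55 and 54 with DOX, a change of -0.24 (SE 0.04, edgeR adjusted p = 6.0e-05). With sgZBTB11 #1 its means were 59.4 and 62.3 CPM (0.08, SE 0.05), which did not pass. H2BC21 had 19.7, 20.9 and 18.4 CPM against 16.7, 15.7 and 17.4 with sgZBTB11 #2 (-0.24, SE 0.08, edgeR adjusted p = 0.044). H2AC17 had 1.04, 0.967 and 0.595 CPM against 0.311, 0.386 and 0.276 (-1.42, SE 0.46, edgeR adjusted p = 0.038), and it shares 85.3% of its stretches of 75 bases with H3C12. The calls of H2BC21 and H2AC17 were each lost in 6 alternative fits, with adjusted p up to 0.20 and 0.16.

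**Figure D5:**
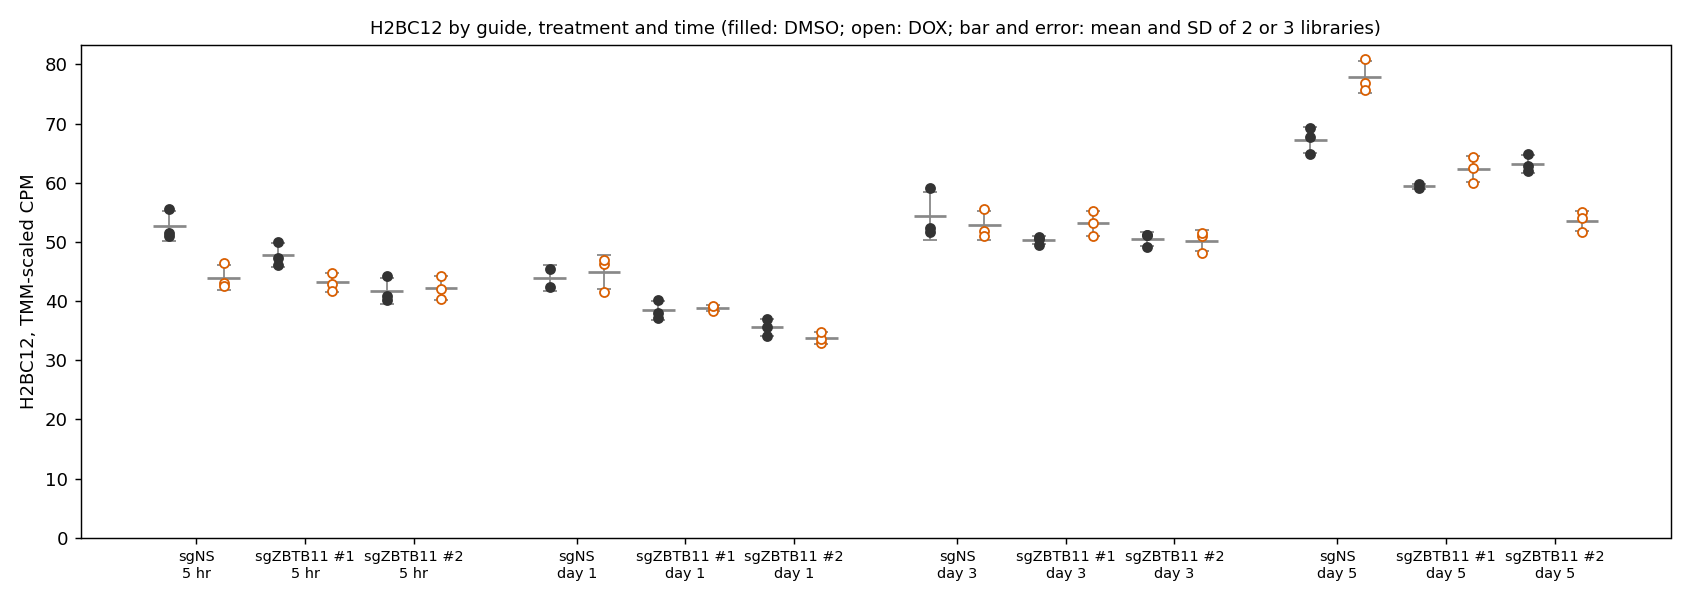
TMM-scaled CPM of H2BC12 in every library by guide and time, filled for DMSO and open for DOX, with a bar and error for the mean and SD of the 2 or 3 libraries of a group. At day 5 the DOX values of sgNS (75.7 to 80.9) lie above its DMSO values, while those of sgZBTB11 #2 (51.7 to 55) lie below theirs.

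The net change is the mean DOX change of both ZBTB11 guides minus that of sgNS. It was called for 2 members at 5 hr (30% of all genes), 0 at day 1 (0.0737%; 3 unadjusted, 0 by DESeq2), 1 at day 3 (0.493%) and 3 at day 5 (19.2%). H2BC12 changed sign between the ends of the course, with 0.18 (SE 0.06, edgeR adjusted p = 0.026) at 5 hr and -0.29 (SE 0.05, edgeR adjusted p = 2.2e-05) at day 5. Between those times its net change was -0.06 (SE 0.07) at day 1 and 0.07 (SE 0.06) at day 3, neither called. Both called values rest partly on sgNS, in which DOX changed H2BC12 by -0.24 and 0.21, and the first was lost in 6 of 23 alternative fits (adjusted p up to 0.12). At 5 hr H2AC18 had a net change of 0.42 (SE 0.12, edgeR adjusted p = 0.0051), and again the sum with H2AC19 gave the same.

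At day 3 the linker histone H1-4 had a net change of -0.97 (SE 0.21, edgeR adjusted p = 0.022). Its CPM was 2.75, 2.64 and 2.14 with DMSO and 3.71, 3.56 and 2.74 with DOX with sgNS. With sgZBTB11 #1 it was 2.86, 3.20 and 2.91 against 1.98, 1.89 and 2.42, and with sgZBTB11 #2 3.48, 3.50 and 3.28 against 2.42, 2.34 and 1.93. The DOX change of H1-4 did not pass the test within any single guide, and the net call was lost without any 1 of 4 sgNS libraries, replicates 2 and 3 with DMSO and 1 and 2 with DOX (largest edgeR adjusted p = 0.12). At day 5 H2AC6 had a net change of -0.32 (SE 0.10) and H2BC26 of 0.57 (SE 0.18), with edgeR adjusted p of 0.019 and 0.021. That of H2AC6 was lost without replicate 3 of sgNS with DOX and by DESeq2 (adjusted p up to 0.11), and that of H2BC26 in 6 of 22 alternative fits (up to 0.073).

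The 2 ZBTB11 guides differed in their DOX change for no member at 5 hr (35.1% of all genes; smallest edgeR adjusted p 0.067), day 1 (0.0614%) or day 3 (0.018%), where 1, 3 and 1 members had an unadjusted p under 0.05. At day 5 they differed for 1 member (2.58% of all genes), again H2BC12, with -0.32 for sgZBTB11 #2 minus sgZBTB11 #1 (SE 0.07, edgeR adjusted p = 0.0015).

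The guide lines were also compared with each other without DOX. Both comparisons share the sgNS libraries with DMSO. For sgZBTB11 #1 against sgNS, 4 members were called at 5 hr (32% of all genes), 7 at day 1 (21.2%), 3 at day 3 (19.6%) and 2 at day 5 (21.8%). For sgZBTB11 #2 the counts were 2 (32.2%), 2 (10.7%), 0 (3.32%; 3 unadjusted, 0 by DESeq2 of 2 it tested) and 0 (18%; 4 unadjusted, 0 by DESeq2 of 17). All 7 at day 1 with sgZBTB11 #1 were lower than in sgNS, which had 2 libraries there. That count was 2 to 6 on leaving out 1 library and 4 by DESeq2. H2BC5 was 10.9 and 10.7 CPM in sgNS and 7.90, 7.44 and 7.38 in sgZBTB11 #1, a difference of -0.51 (SE 0.12, edgeR adjusted p = 0.0013).

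At 5 hr H2AC18 was lower in both lines than in sgNS, with log2 differences of -0.67 (SE 0.10) in sgZBTB11 #1 and -0.44 (SE 0.09) in sgZBTB11 #2, both the same for the sum with H2AC19. H2BC12 was lower than in sgNS at day 1 in both, with -0.18 (SE 0.06) and -0.29 (SE 0.06), and in sgZBTB11 #2 at 5 hr, with -0.32 (SE 0.05). The first of these H2BC12 differences was lost in 5 of 10 alternative fits (edgeR adjusted p up to 0.27). H2BC5, H2AC25 and H2BC21 were called in sgZBTB11 #1 at day 3, with 0.20, 0.31 and -0.25. The call of H2AC25 was lost without replicate 2 of sgZBTB11 #1 (edgeR adjusted p = 0.072), and those of the other 2 in 6 of 11 fits each.

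The labelled cell type was read from marker genes. Of 7 markers of pancreatic tumour epithelium, 4 had a median TPM of at least 1, KRT18, KRT8, KRT19 and MUC1, while CDH1 and EPCAM were at 0. Markers of acinar and endocrine cells reached that level in 0 of 4 each, of fibroblasts in 1 of 5 (COL1A2, with a median TPM of 146), of immune cells in 1 of 4 and of endothelial cells in 1 of 3.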

How the data were processed

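RNA was measured in 70 libraries by sequencing of polyadenylated RNA, per the labels' protocols. The authors deposited expected counts per gene, which need not be whole, and TPM. The submitters' processing notes name RSEM and the build GRCh38.p14. Aligner, annotation version and use of strand: not given in the sources used here. Reads of overlapping or antisense genes therefore cannot be told apart.

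Expected counts were rounded to whole numbers (5.13% of values were not whole) and tested with edgeR 4.0.16 in R 4.3.3: filterByExpr by group, TMM scaling, robust quasi-likelihood F tests, Benjamini-Hochberg adjustment over all genes tested and a threshold of 0.05. DOX, net, guide and line comparisons were fitted within each time and steps of time in 1 fit of all 70 libraries. The scripts were tested on simulated data. Alternatives were DESeq2 1.42.0, its size factors, no filter, a replicate block, copies summed and each library left out. Within the 68 pairs of libraries of a group, 0 were identical, so each counted once. Named genes were the 12 members with the highest mean CPM, up to 5 called rises and 5 called falls per comparison with the largest change, and up to 4 genes per list, besides SLBP and NPAT, which are named for their role. The members and gene lists were chosen with earlier results of these data known.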

Additional observations from a re-analysis of the deposited data

Results flagged for a closer look

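For 7 changes a test of the difference between guides passed edgeR's adjusted threshold. For H2BC12, the member with the most reads, the net change (both ZBTB11 guides minus sgNS) was 0.18 on the log2 scale at 5 hr and -0.29 at day 5, and sgZBTB11 #2 differed from sgZBTB11 #1 by -0.32 at day 5. For H2AC18 the net change was 0.42 at 5 hr. For H1-4 it was -0.97 at day 3. At day 5 it was -0.32 for H2AC6 and 0.57 for H2BC26. The calls for H2BC12 at day 5, net and between the ZBTB11 guides, and for H2AC18 were kept in every alternative fit that gave them an adjusted p. The net calls for H2BC12 at 5 hr and H2BC26 were lost in 6 of 23 and 6 of 22 fits, that for H1-4 without any 1 of 4 sgNS libraries, and that for H2AC6 by DESeq2 and without replicate 3 of sgNS with DOX.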

How the results depend on the processing

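Counts of called members in the 6 steps of culture time moved by less than 1.5 times under every alternative run. Without 1 library they were 18 to 20, 20 to 24 and 13 to 16 with DMSO, and 19 to 25, 24 to 28 and 16 to 19 with DOX. The only reversal counted was H4C14 from day 1 to day 3 with DOX, which was 0.22 with copies summed, where the summing itself replaces the gene by the pair. A copy added to its partner, such as H4C12, has no value of its own there and could not be counted as reversed. The other counts are small, and several moved; unless stated, the cause was not tested. DESeq2, which gave an adjusted p to fewer members in all but 1 of the comparisons named next, called 0 for the DOX change of sgZBTB11 #1 at 5 hr and 1 for that of sgZBTB11 #2 at day 5. It called 4, 1 and 1 for sgZBTB11 #1 against sgNS at days 1, 3 and 5, 1 for sgZBTB11 #2 against sgNS at day 1, and 1, 0 and 1 for the net change at 5 hr, day 3 and day 5. With no filter, more genes were tested, and the DOX change was called for 2 members with sgZBTB11 #1 at day 1, 1 at day 3, and 2 and 1 with sgZBTB11 #2 at days 1 and 5. The line difference of sgZBTB11 #1 at day 3 and the net change at 5 hr and day 1 were then called for 1 member each. With copies summed, the DOX change of sgNS at 5 hr was called for 5 and the line difference of sgZBTB11 #2 at day 5 for 1. DESeq2's size factors gave 1 call for sgZBTB11 #2 with DOX at 5 hr.

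Without 1 library, the DOX change was called for 2 to 4 members (sgNS, 5 hr), 1 to 4 (sgNS, day 5), 0 to 1 (sgZBTB11 #1, 5 hr and day 1), 0 to 1 (sgZBTB11 #2, 5 hr) and 1 to 3 (sgZBTB11 #2, day 5). The line difference was called for 1 to 4, 2 to 6, 1 to 4 and 1 to 3 members with sgZBTB11 #1 at the 4 times, and for 1 to 2 and 0 to 1 with sgZBTB11 #2 at days 1 and 5. The net change was called for 1 to 4, 0 to 1, 0 to 1 and 1 to 4, and the difference between the ZBTB11 guides for 0 to 1 at 5 hr and 1 to 2 at day 5. A group left with 1 library is assumed to vary like the others.

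Replicate numbers did not pair the samples: the deviations of 170 same-numbered pairs of libraries from different groups had a median correlation of 0.0085, with 14 over 0.1, and 340 other pairs one of -0.0036. A fit with the replicate number as a block called 1 member each for the DOX change of sgZBTB11 #1 and of sgZBTB11 #2 at day 1, the difference between these guides at 5 hr and day 1, and the line difference of sgZBTB11 #2 at day 1.

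Low counts limit most members: 26 of the 68 had a median count of at least 10. Reads of near-identical copies were split by estimation, and counting could include overlapping genes. Levels describe polyadenylated RNA alone. Under scaling by counts outside mitochondrial genes the class sums rose more, as given above.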
